A study of Mus musculus with 8 samples.

Results

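Tiles of 500 bp with the sequence of a CpG island were followed far from every annotated promoter in the H3K4me3, H3K9ac, H3K27me3 and H3K36me3 profiles of Lewis lung carcinoma isografts. Chromosomes 1 to 19 of mm9 were cut into tiles from position 1. A tile was a member when G+C made up at least 55% of its bases, when its CpG O/E was at least 0.6, when it held no undetermined base, and when it lay more than 5 kb from every transcription start site (TSS) of any gene type in GENCODE vM1. CpG O/E is the number of CpG dinucleotides divided by the number expected from the C and G content of the tile. Of the 26384 CpG-rich tiles at any distance, 4401 (16.7%) were members, among 3967906 distal tiles. Of the others, 12302 held a TSS and 9681 lay within 5 kb of one. The middle of the tile was outside gene bodies in 2865 members and within them in 1536. No measured value entered this choice.

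The study compared isografts of LLC-NR cells, which respond to the VEGF inhibitor VEGF-Trap, with isografts of LLC-R cells, which had been selected for resistance to it in mice. Both lines were grown under the skin of C57BL/6J mice, so each chromatin sample may also hold nuclei of host stroma, vessels and leukocytes, which peak positions cannot separate from tumor nuclei. Chromatin was digested with micrococcal nuclease and immunoprecipitated with an antibody against 1 of the 4 marks. Each of the 8 libraries stands for 1 line and 1 mark, without replicates, so no test between the lines could be made. No input library was used here.

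CpG dinucleotides are rare in the mouse genome because methylated cytosine mutates readily to thymine, and CpG islands are the stretches where they were kept. Unmethylated CpGs are bound by CXXC domain proteins. One of these belongs to the complexes that methylate H3K4, and another, KDM2B, brings a Polycomb complex to islands, where H3K27me3 can follow. Islands away from annotated promoters are known as orphan islands, and some of them start unannotated transcripts or act as enhancers. Within transcribed genes, H3K36me3 recruits the DNA methyltransferase DNMT3B, and CpG-rich exons are often methylated. H3K9ac marks active promoters and enhancers.

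The deposited peaks are 147 bp wide, do not overlap within a library and carry no height. On chromosomes 1 to 19 the libraries held from 5398636 peaks (H3K4me3, LLC-R) to 8629352 peaks (H3K27me3, LLC-R). Levels are given as peaks per kb, with a peak counted in the tile that holds its midpoint. A tile has room for few peaks of this width, so the number rises less than the signal does where a mark is dense. Since peak numbers also follow depth, each level was divided by that of other tiles of the same library. These were the 59170 distal tiles whose G+C content reached 55% while their CpG O/E stayed under 0.6, and are called like tiles. They were weighted to the G+C content of the members in bins of 1 percentage point unless stated otherwise. All 95% intervals cover the counting of peaks in the members and stand for neither biological nor technical replicates. Those of ratios and of differences between lines assume Poisson or binomial counts of peaks. Peaks per tile spread less than Poisson counts in single-copy members, and more over all members outside gene bodies. These intervals are therefore a rough guide only.

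The sequences below show what separates members from other tiles. They are the central 300 bases of the single-copy member with the most CpG in each location and of the single-copy tile with the fewest CpG among those nearest to it in G+C content and under a CpG O/E of 0.6, from the plus strand of NCBIM37, the same assembly as mm9. Capitals mark each CpG. No other tile reached the G+C content of these 2 members, so G+C also differs within each pair.
Member outside gene bodies, chr15:100701101-100701400: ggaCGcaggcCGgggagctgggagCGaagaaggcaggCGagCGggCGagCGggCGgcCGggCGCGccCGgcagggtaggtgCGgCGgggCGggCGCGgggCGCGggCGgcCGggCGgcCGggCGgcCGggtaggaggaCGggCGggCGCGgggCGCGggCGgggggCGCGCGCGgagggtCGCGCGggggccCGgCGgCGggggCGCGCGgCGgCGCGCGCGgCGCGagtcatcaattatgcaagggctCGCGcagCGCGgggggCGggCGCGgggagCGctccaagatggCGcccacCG
Other tile outside gene bodies, chr12:78620101-78620400: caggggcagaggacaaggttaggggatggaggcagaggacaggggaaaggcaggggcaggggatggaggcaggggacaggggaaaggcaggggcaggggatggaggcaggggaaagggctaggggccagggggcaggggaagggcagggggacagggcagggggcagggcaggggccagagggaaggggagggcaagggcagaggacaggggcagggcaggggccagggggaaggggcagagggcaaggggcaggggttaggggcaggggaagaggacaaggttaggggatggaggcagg
Member within a gene body, chr7:70903101-70903400: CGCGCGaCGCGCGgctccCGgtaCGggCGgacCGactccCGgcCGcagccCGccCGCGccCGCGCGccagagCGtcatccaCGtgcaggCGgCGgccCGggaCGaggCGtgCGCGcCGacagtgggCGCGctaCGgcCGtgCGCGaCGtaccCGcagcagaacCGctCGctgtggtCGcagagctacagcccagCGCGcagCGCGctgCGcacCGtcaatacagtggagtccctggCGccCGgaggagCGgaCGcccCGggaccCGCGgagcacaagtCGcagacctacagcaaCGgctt
Other tile within a gene body, chr11:95852601-95852900: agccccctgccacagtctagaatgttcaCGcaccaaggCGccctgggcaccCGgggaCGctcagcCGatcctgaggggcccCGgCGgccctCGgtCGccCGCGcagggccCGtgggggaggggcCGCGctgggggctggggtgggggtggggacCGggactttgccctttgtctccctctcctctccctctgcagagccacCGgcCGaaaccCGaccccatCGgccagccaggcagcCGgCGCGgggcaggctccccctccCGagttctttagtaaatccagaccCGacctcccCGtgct
The first tile, 56.2 kb from the nearest protein-coding TSS, that of Slc4a8, had a G+C content of 86.2% and 103 CpG in its 500 bp. Its neighbor in G+C, at 71.0% and 101 kb from any TSS, had 0 CpG. The tile on chromosome 7 lay wholly in coding exon of Otud7a, which encodes a deubiquitinase, and held 93 CpG at a G+C content of 78.0%. The tile compared with it lay in an intron of Igf2bp1, which encodes an RNA-binding protein, and held 32 CpG at 72.4%. For H3K4me3, the 2 members held 2 and 1 peaks in LLC-NR against 1 and 0 in LLC-R, and for H3K27me3 they held 2 and 2 in LLC-NR against 1 and 2 in LLC-R. Neither member held an H3K36me3 peak in either line. The other tiles beside them, outside and within a gene body, held 1 and 3 H3K4me3 peaks in LLC-NR against 1 and 2 in LLC-R. Their H3K27me3 peaks numbered 2 and 3 in LLC-NR against 3 and 3 in LLC-R. These tiles illustrate the sequence and were too rich in G+C to enter the ratios.

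Across the members, the median G+C content was 62.4% (range, 55 to 86.2%), the median CpG O/E was 0.666 and the median number of CpG was 32. In 46 members fewer than 10 CpG were enough for the threshold, because C or G was scarce. The median distance to a TSS was 26.98 kb, with 34.6 kb outside and 17.1 kb within gene bodies. Chromosome 7 had the most members per 10000 distal tiles (15.2) and chromosome 3 the fewest (8.77). Just inside the O/E threshold, at 0.6 to 0.61, 432 tiles averaged 1.15 H3K4me3 peaks per kb in LLC-NR against 1.12 in LLC-R. Just outside, at 0.59 to 0.6, 425 tiles averaged 0.899 and 0.946.

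Many members were copies of the same sequence. Repetition was measured as the share of the 31-base words of a tile that occur once in the assembly. Of the members, 1744 (39.6%) had fewer than 10% of such words and are called repeated, 1720 (39.1%) had at least 90% and are called single-copy, and 937 were mixed. Of the other tiles, 72.1% were single-copy and 8.48% repeated. The words of a repeated member had a median of 1924 copies. Linking repeated members that shared at least 47 words gave 55 groups, of which 35 were single tiles linked to no other. The largest group held 682 tiles on all 19 chromosomes, and the next held 434 and 237. The authors had kept uniquely mapped reads only, and few peaks lay in such tiles. The H3K4me3 level of LLC-NR was 0.149 peaks per kb in repeated, 1.16 in mixed and 3.83 in single-copy members, and the other 7 libraries had the same order. No peak of any library fell in 1511 members (34.3%), of which 1379 were repeated, 132 mixed and 0 single-copy. Single-copy tiles made up 58.6% of the members at 5 to 10 kb from a TSS outside gene bodies and 15.2% of those beyond 50 kb. The ratios to like tiles, the differences between the lines and the tiles that differ between them are given for all members and for single-copy members, and the courses, distances and shares below for single-copy members only.

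**Figure D1:**
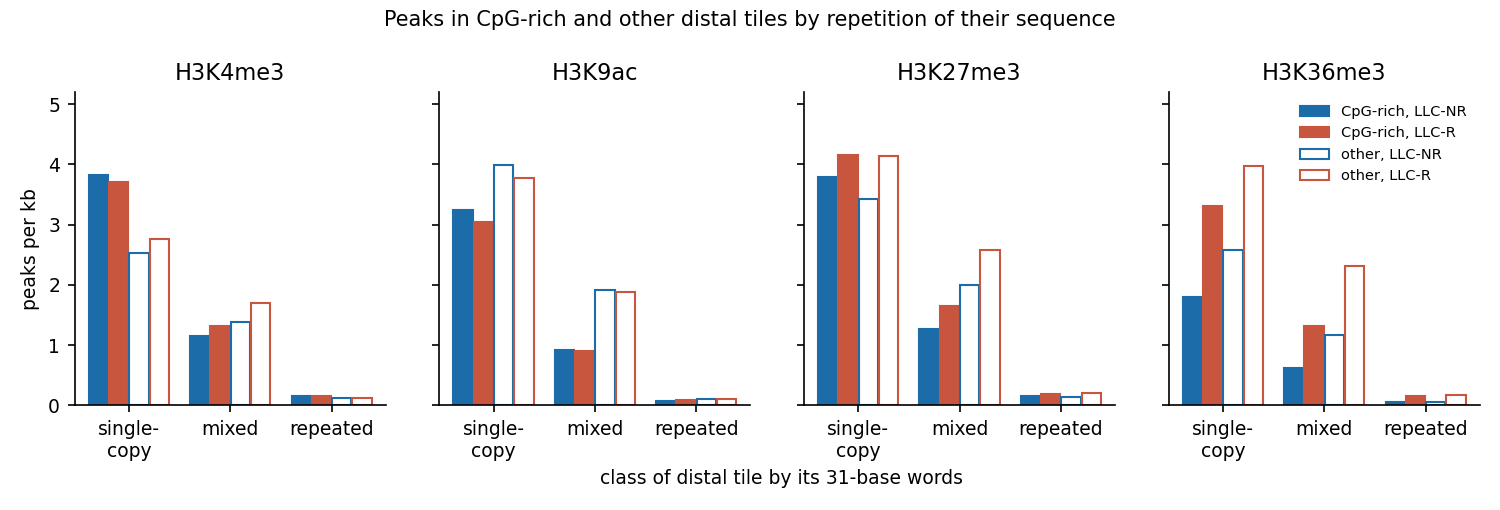
Peaks per kb (y axis) of the 4401 CpG-rich members (filled bars) and the 59170 other distal tiles (open bars) by repetition class (x axis) in each mark and line. Levels are highest in single-copy and lowest in repeated tiles in every library, and among single-copy tiles, before matching on G+C, H3K4me3 is higher in the members while H3K9ac and H3K36me3 are lower.

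Single-copy members carried more H3K4me3 than other single-copy tiles of like G+C in both lines. Outside gene bodies, 655 members had like tiles, and their H3K4me3 level was 3.84 ± 1.34 peaks per kb (SD across tiles) in LLC-NR, which is 1.26-fold (95% interval, 1.19 to 1.33) that of like tiles. In LLC-R it was 3.64 ± 1.33, or 1.16-fold (1.10 to 1.23). The ratio was above 1 on 19 of 19 chromosomes in both libraries. Within gene bodies, the 625 members with like tiles were at 1.23-fold (1.16 to 1.30) in LLC-NR and 1.11-fold (1.04 to 1.18) in LLC-R, above 1 on 18 of 19 chromosomes in each. Single-copy members were low in H3K9ac, at 0.906-fold in LLC-NR, 0.898-fold in LLC-R outside gene bodies and at 0.920-fold and 0.913-fold within them. The intervals of these 4 ratios ended below 1, the highest at 0.976. H3K36me3 was at 0.906-fold outside and 0.883-fold within gene bodies in LLC-NR, with intervals below 1. In LLC-R both H3K36me3 ratios were 0.945, with intervals that reached 1.0.

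H3K27me3 showed the smallest departure, other than in LLC-NR within gene bodies, where that of H3K9ac was about as small. Outside gene bodies, its ratio was 1.02 (0.962 to 1.08) in LLC-NR and 0.962 (0.911 to 1.02) in LLC-R. Within them it was 1.09 (1.03 to 1.15) in LLC-NR and 1.03 (0.970 to 1.08) in LLC-R. Only the ratio of LLC-NR within gene bodies had an interval that left out 1, and 17 of 19 chromosomes were above 1 there.

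Several of these directions differed when repeated and mixed members were included. Over all members with like tiles, 2628 outside and 1401 within gene bodies, H3K4me3 was at 1.07-fold and 1.02-fold in LLC-NR and at 0.986-fold and 0.913-fold in LLC-R. All 3 other marks were below 1 in every library and location, from 0.694-fold (H3K9ac, LLC-R, outside) to 0.868-fold (H3K27me3, LLC-NR, within). The share of repeated tiles differed between members and other tiles, as given above. When all members were compared with other tiles of the same repetition class and like G+C, H3K4me3 was above 1 in all 4 cases, with log2 ratios from 0.09 to 0.26, and H3K9ac and H3K36me3 were below, with log2 ratios from -0.33 to -0.14.

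**Figure D2:**
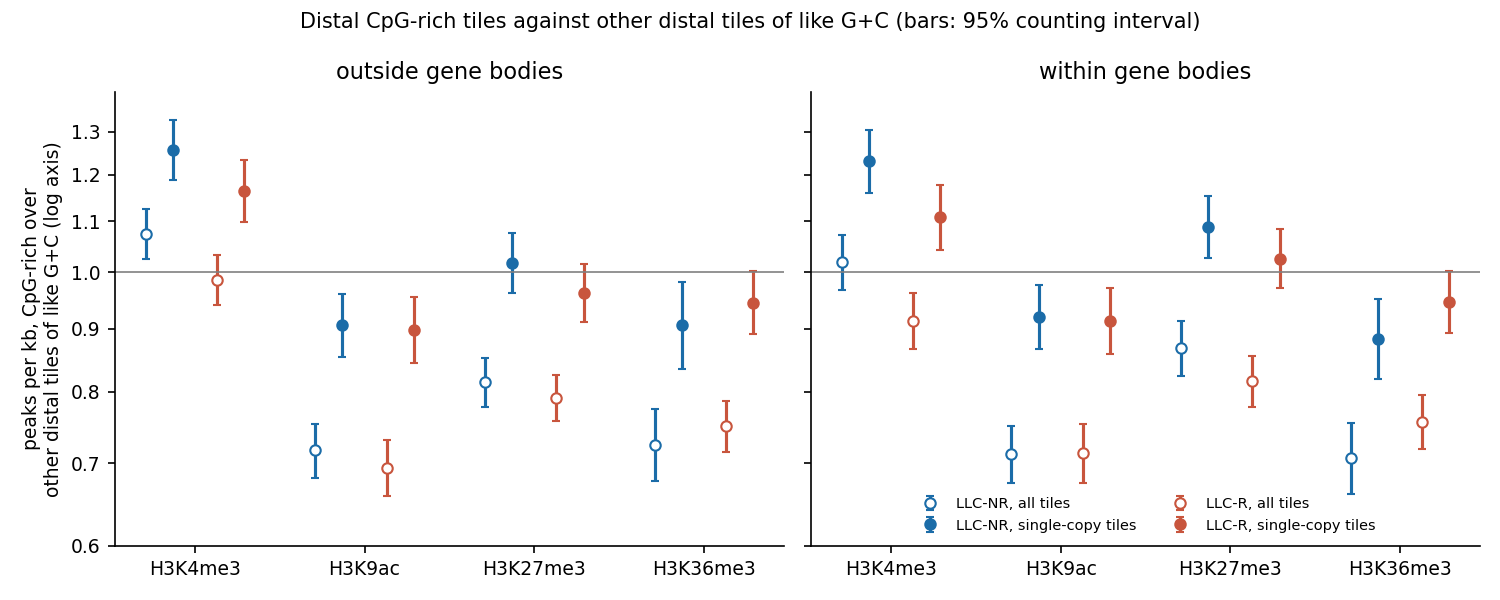
Ratio of peaks per kb in distal CpG-rich tiles to that in other distal tiles of like G+C (y axis, log scale) for each mark (x axis), outside (left) and within gene bodies (right), with 95% counting intervals. Open points are all members and filled points single-copy members; the filled H3K4me3 points lie between 1.11 and 1.26 and those of H3K9ac between 0.898 and 0.920.

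H3K4me3 was higher in classes of higher CpG O/E up to about the threshold. Above it, no clear course was seen outside gene bodies. Within gene bodies, LLC-R rose over the member classes and LLC-NR was highest at 0.7 to 0.8. Single-copy distal tiles with a G+C content of 55 to 64% were grouped by CpG O/E and weighted to 1 G+C distribution. Outside gene bodies, H3K4me3 in LLC-NR was 2.49 peaks per kb in the 1886 tiles under an O/E of 0.1, 2.98 at 0.3 to 0.4 and 3.57 at 0.5 to 0.6. The 4 member classes had 3.68 at 0.6 to 0.7, 3.93 in the 155 tiles at 0.7 to 0.8, 3.71 at 0.8 to 0.9 and 3.82 in the 39 tiles from 0.9. In LLC-R the classes below the threshold had 2.65, 3.02 and 3.46, and the member classes 3.62, 3.53, 3.57 and 3.51. Within gene bodies, the same 3 classes below the threshold had 2.34, 2.73 and 3.06 in LLC-NR, and the member classes 3.34, 3.70, 3.64 and 3.58. In LLC-R these were 2.61, 2.97 and 3.21, followed by 3.19, 3.48, 3.54 and 3.58. H3K9ac outside gene bodies was 3.59 in the first, 3.66 in the sixth and 2.87 in the last of the 10 classes in LLC-NR, against 3.21, 3.42 and 2.73 in LLC-R. Within gene bodies it was 3.75, 3.70 and 3.33 in LLC-NR, against 3.78, 3.49 and 2.74 in LLC-R. These courses were read without a test. At least 1 G+C group held fewer than 20 tiles in each class outside gene bodies other than 0.5 to 0.7, and within them in the classes under 0.2 and from 0.7.

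**Figure D3:**
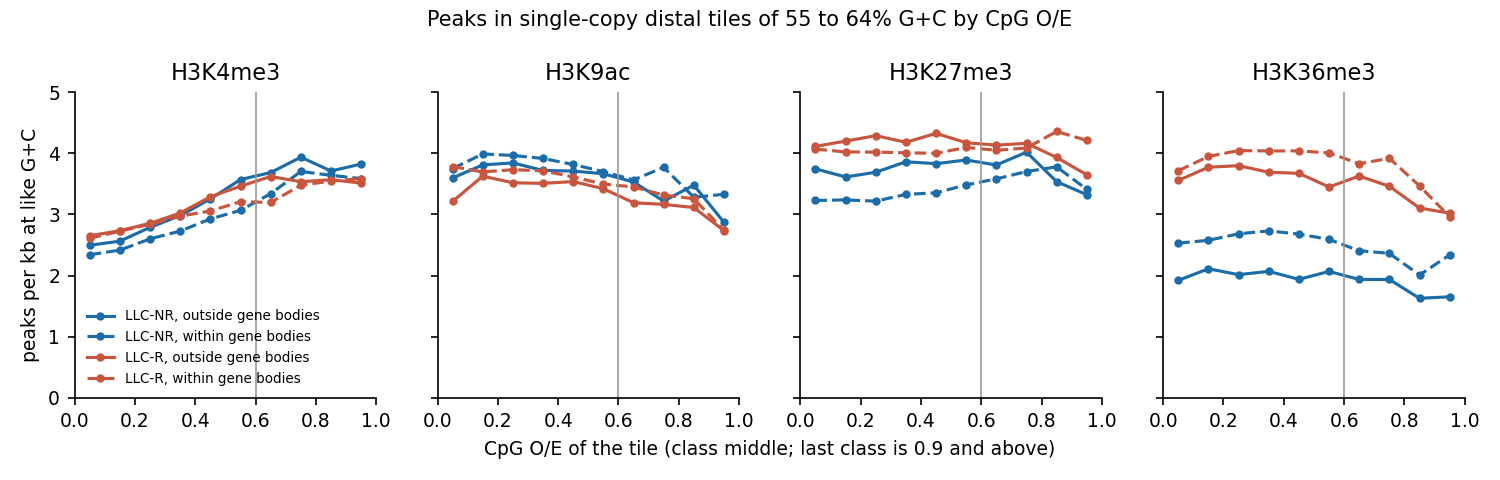
Peaks per kb at like G+C (y axis) of single-copy distal tiles with 55 to 64% G+C by CpG O/E class (x axis), for each mark, line and location; the grey line is the O/E threshold of 0.6. Outside gene bodies, H3K4me3 is at 2.49 in the first and 3.82 in the last class for LLC-NR, against 2.65 and 3.51 for LLC-R, and the 4 classes right of the threshold have no clear order.

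H3K4me3 and H3K36me3 levels also differed with G+C content, and members and other tiles lay closer in H3K4me3 in richer classes. CpG O/E was not held fixed in these classes, so its part cannot be separated from that of G+C. Among other single-copy tiles outside gene bodies, H3K4me3 in LLC-NR was 2.54 peaks per kb at a G+C content of 55 to 58% and 4.0 at 64 to 67%, in 77 tiles. The members went from 3.58 to 4.23 over the same classes, and to 4.44 at 67 to 70%. H3K36me3 of the members in LLC-NR went the other way, from 2.04 at 55 to 58% to 0.955 at 73 to 76%. No other tiles were frequent enough for matching above a G+C bin of 65% outside and 66% within gene bodies, and 257 and 183 single-copy members beyond it are described by their levels only. The part of amplification and sequencing of G+C-rich fragments in these courses was not tested.

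H3K4me3 ratios were above 1 in the tile and at each step up to 2 kb from it, with some below 1 farther away in LLC-R, and the H3K9ac and H3K36me3 ratios were lowest in the tile itself and below 1, though nearer to it, at 0.5 kb. Ratios were taken at steps of 0.5 kb up to 5 kb on both sides of single-copy members and like tiles. Outside gene bodies, H3K4me3 in LLC-NR was at 1.26-fold in the tile, 1.26-fold and 1.27-fold at 0.5 kb on the left and right, 1.22-fold and 1.21-fold at 1 kb, and 1.07-fold and 1.14-fold at 5 kb. In LLC-R it was at 1.16-fold in the tile, 1.24-fold and 1.17-fold at 0.5 kb, and 1.02-fold and 1.07-fold at 5 kb. Within gene bodies, the LLC-NR ratio was 1.23 in the tile, 1.19 at 0.5 kb on both sides, and 1.11 and 1.15 at 1 kb. In LLC-R it was 1.11 in the tile, against 1.13 and 1.08 at 0.5 kb. H3K9ac outside gene bodies was at 0.906-fold in the tile and at 0.968-fold and 0.977-fold at 0.5 kb in LLC-NR, against 0.898-fold, 0.989-fold and 0.957-fold in LLC-R. Within gene bodies it was at 0.920-fold, 0.934-fold and 0.968-fold in LLC-NR, against 0.913-fold, 0.967-fold and 0.940-fold in LLC-R. H3K36me3 outside gene bodies was at 0.906-fold in the tile, 0.994-fold and 0.965-fold at 0.5 kb in LLC-NR, against 0.945-fold, 0.999-fold and 0.959-fold in LLC-R. Within gene bodies it was at 0.883-fold, 0.989-fold and 0.983-fold in LLC-NR, against 0.945-fold in the tile and 0.982-fold on the left in LLC-R, with nearly the same value on the right. H3K27me3 in LLC-NR within gene bodies was nearly as high at 5 kb on the left (1.08-fold) as in the tile (1.09-fold). The steps around the tile were matched on the G+C content of the central tile only.

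**Figure D4:**
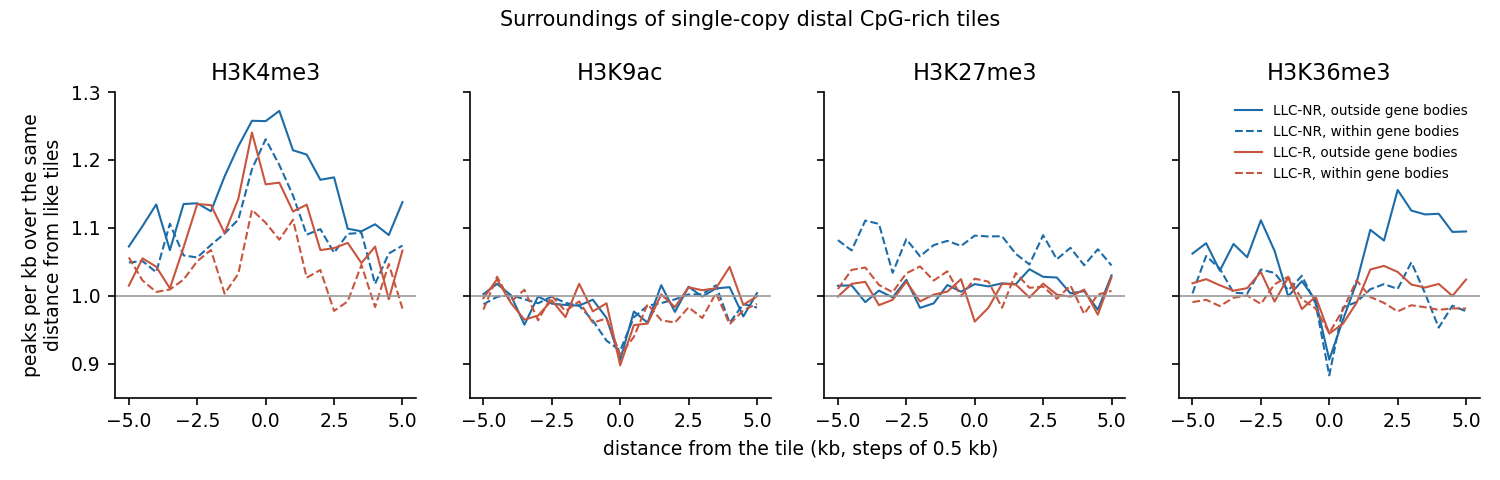
Ratio of peaks per kb around single-copy members to that around like tiles (y axis) by distance from the tile (x axis, kb), for each mark, line and location. H3K4me3 is at 1.11 to 1.26 in the tile and as high or higher at 0.5 kb on at least 1 side in 3 of the 4 cases, and H3K9ac and H3K36me3 are at 0.883 to 0.945 in the tile.

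Tile by tile, an H3K4me3 peak was missing from few single-copy members. Outside gene bodies, 13 of 912 (1.43%, Clopper-Pearson 95% interval 0.761 to 2.43%) had none in LLC-NR and 16 (1.75%) had none in LLC-R. Among the 655 with like tiles, the share was 1.83% in LLC-NR against 10.9% of like tiles. Within gene bodies, it was 2.72% of 625 against 11.3%. Of the 8 libraries, H3K36me3 in LLC-NR left the most single-copy members without a peak, 330 of 912 outside (36.2%) and 248 of 808 within gene bodies (30.7%). Among members with like tiles these shares were 30.7% against 26.4% and 24.0% against 18.1%.

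Peaks of H3K4me3 fell together with those of each other mark in a larger share of members than of like tiles. At least 2 peaks of both H3K4me3 and H3K27me3 were found in 59.4% of the 655 members outside gene bodies in LLC-NR, against 42.2% of like tiles. In LLC-R these shares were 60.8% against 49.2%. Within gene bodies, the shares were 51.0% against 31.1% in LLC-NR and 57.8% against 44.1% in LLC-R. For H3K4me3 with H3K9ac outside gene bodies, they were 51.3% against 42.3% in LLC-NR and 43.8% against 39.2% in LLC-R. Within gene bodies they were 41.9% against 38.5% in LLC-R, and members were also higher in LLC-NR. For H3K4me3 with H3K36me3 in LLC-R, they were 47.2% against 39.4% outside and 48.5% against 42.8% within gene bodies. Members were higher in LLC-NR as well. No share was computed from the levels of the single marks, so a particular link of H3K4me3 with H3K27me3 was not tested. The rank correlation between H3K4me3 and H3K27me3 peaks across the 1720 single-copy members was 0.14 in LLC-NR against 0.10 in LLC-R. Between LLC-NR and LLC-R, peaks of 1 mark correlated with 0.25 for H3K4me3, 0.29 for H3K9ac, 0.23 for H3K27me3 and 0.26 for H3K36me3. These correlations are descriptions across tiles, which share G+C content and depth, and with 1 library each they do not tell whether 2 marks lie on the same nucleosome or in the same cell.

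Within gene bodies, members in introns stood further above like tiles in H3K4me3 than those in coding exons. Coding exon was present in 627 (40.8%) of the members there, other exon in 36 and intron only in 873 (56.8%), but only 175 of the intronic tiles were single-copy against 602 of the coding ones. In LLC-NR, H3K4me3 was 3.97 ± 1.29 peaks per kb (SD across tiles) in the single-copy intronic members and 3.55 ± 1.40 in the coding ones. Against like tiles of the same feature, the ratios were 1.44 and 1.15, in the 117 intronic and 516 coding members that had them. This match used wider G+C bins of 3 points, and no interval was computed. The ratios in LLC-R were 1.15 and 1.09. H3K36me3 was lower in intronic than in coding members, at 1.62 ± 1.55 against 2.13 ± 1.65 in LLC-NR and 3.02 ± 1.40 against 3.61 ± 1.53 in LLC-R. The SDs of these levels overlap widely.

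The ratios of single-copy members were also taken by distance from the nearest TSS. Like tiles here were of the same distance class and were matched in G+C bins of 3 points, without intervals. Outside gene bodies, the H3K4me3 ratio in LLC-NR was 1.18 at 5 to 10 kb, 1.29 at 10 to 20 kb, 1.30 at 20 to 50 kb and 1.30 beyond 50 kb. In LLC-R the values were 1.14, 1.18, 1.23 and 1.14. Within gene bodies, they were 1.16, 1.25, 1.30 and 1.37 in LLC-NR against 1.07, 1.14, 1.15 and 1.24 in LLC-R. H3K4me3 above like tiles was thus seen in each of the 8 distance classes of both lines, down to 63 members with like tiles in the farthest class within gene bodies. For H3K36me3 in LLC-R, the 4 ratios were 0.909, 0.891, 0.932 and 1.03 outside gene bodies, against 0.929, 0.994, 0.877 and 1.03 within them. For H3K27me3 in LLC-R within gene bodies, they were 1.07, 1.01, 0.994 and 0.925.

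To see where distal members differ from promoter islands, CpG-rich single-copy tiles that hold a TSS or lie within 5 kb of one were compared with the same other tiles, over both locations. H3K4me3 in LLC-NR was at 1.25-fold (1.20 to 1.29) in 1381 distal members, 1.37-fold (1.34 to 1.39) in 6339 tiles near a TSS and 1.31-fold (1.29 to 1.33) in 6883 tiles with a TSS. The distal interval does not overlap that of the near tiles and overlaps that of the tiles with a TSS. H3K9ac in LLC-NR was at 0.912-fold (0.875 to 0.949) in distal members and at 1.03-fold (1.01 to 1.04) in tiles with a TSS. In LLC-R these ratios were 0.889 (0.852 to 0.927) and 0.956 (0.938 to 0.973). H3K27me3 had the opposite order, at 1.08-fold (1.04 to 1.12) in distal members and 0.907-fold (0.890 to 0.924) in tiles with a TSS in LLC-NR, and at 1.01-fold (0.973 to 1.05) and 0.872-fold (0.857 to 0.888) in LLC-R. H3K36me3 was lower in tiles with a TSS, at 0.778-fold against 0.852-fold in LLC-NR. In both lines, therefore, the ratios of distal members were lower for H3K9ac and higher for H3K27me3 and H3K36me3 than those of tiles with a TSS. The counting intervals do not overlap, but each set was weighted to its own G+C content and location was not matched. Tiles near a TSS lay closer to distal members in H3K27me3, with overlapping intervals. Their ratios were 1.03 (1.01 to 1.05) in LLC-NR and 0.973 (0.956 to 0.990) in LLC-R. In H3K36me3 they were at 0.868 and 0.919, beside 0.852 and 0.926 in distal members. Their H3K9ac ratios were 1.03 and 0.990, above those of distal members. For H3K36me3 of distal members in LLC-NR, the ratio over both locations lay below those by location, 0.906 outside and 0.883 within gene bodies. The richest 4678 tiles with a TSS had no like tiles and are not in these ratios.

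**Figure D5:**
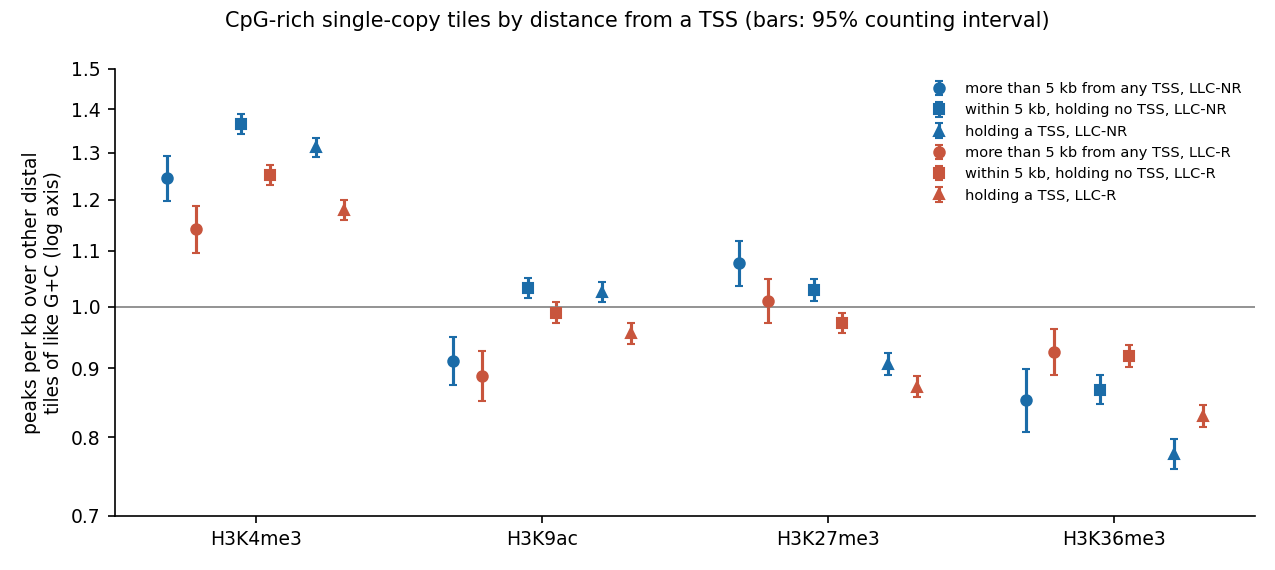
Ratio of peaks per kb in single-copy CpG-rich tiles to other distal tiles of like G+C (y axis, log scale) for each mark (x axis), by distance from a TSS and line, with 95% counting intervals. Distal members (circles) lie below tiles with a TSS (triangles) for H3K9ac, 0.912 against 1.03 in LLC-NR, and above them for H3K27me3, 1.08 against 0.907.

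Between the lines, the H3K4me3 ratio of single-copy members was lower in LLC-R, by a log2 difference of -0.13 (-0.21 to -0.05) over both locations, and lower on 16 of 19 chromosomes. Outside gene bodies the difference was -0.11 (-0.23 to 0.0045) and within them -0.15 (-0.27 to -0.03). Over all members the values were -0.12 (-0.22 to -0.03) and -0.16 (-0.26 to -0.05). A lower ratio in LLC-R was also seen in CpG-rich tiles near a TSS, at -0.12 (-0.16 to -0.09), and in those with a TSS, at -0.15 (-0.19 to -0.12). H3K27me3 of single-copy members over both locations differed by -0.09 (-0.17 to -0.02) and H3K36me3 by 0.12 (0.02 to 0.22), while H3K9ac differed by -0.04 (-0.12 to 0.05). Like tiles over both locations were not matched on location. Outside and within gene bodies apart, H3K27me3 differed by -0.080 (-0.19 to 0.032) and -0.086 (-0.20 to 0.030). H3K36me3 then differed by 0.060 (-0.084 to 0.20) and 0.098 (-0.038 to 0.24), so the intervals by location included 0 for both marks. Tiles near a TSS and with a TSS differed in the same direction in H3K27me3 (-0.081 and -0.056) and in H3K36me3 (0.082 and 0.093). With 1 library per line, line, tumor and library cannot be told apart. The differences also rested on the division by like tiles. Divided by the uniquely mapped reads of each library, H3K4me3 in all members was higher in LLC-R, by 0.26 outside and 0.27 within gene bodies, and divided by the library's own peaks it differed by -0.0043 and 0.0078. Divided by mapped reads, H3K36me3 in all members was lower in LLC-R, by -0.19 and -0.40, and divided by own peaks it was higher, by 0.59 and 0.38. H3K27me3 differed by -0.94 and -0.90 under the first and by -0.17 and -0.13 under the second, and H3K9ac by 0.72 and 0.75 and by 0.039 and 0.065.

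Over all members, few tiles differed by 2 or more peaks between the lines, other than in higher H3K36me3. H3K4me3 was lower by that much in LLC-R in 62 members (1.41%) and higher in 71 (1.61%), against 5.21% and 5.2% of all distal tiles. H3K9ac was lower in 109 members (2.48%; all distal tiles, 4.71%) and higher in 69 (1.57%; all distal tiles, 2.19%). H3K27me3 was lower in 26 (0.591%; all distal tiles, 0.987%) and higher in 115 (2.61%; all distal tiles, 9.0%). H3K36me3 was lower in 10 (0.227%; all distal tiles, 0.891%) and higher in 418 (9.498%; all distal tiles, 11.7%). Every share over all members was below that of all distal tiles, and many members held no peak in any library. Among the 1720 single-copy members, H3K4me3 was higher in 44 (2.56%) against 6.32% of like tiles, and lower in 51 (2.97%) against 4.12%. H3K27me3 was higher in 85 (4.94%) against 7.67%, and lower in 19 (1.10%) against 1.53%. H3K36me3 was higher in 364 (21.2%) against 21.2% of like tiles. H3K9ac had the other order, lower in 95 (5.52%) against 4.48% and higher in 62 (3.60%) against 2.91% of like tiles. All these member shares were taken over the 1720 single-copy members, of which 339 had no like tiles over both locations.

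Adjacent members formed runs, and long runs were mostly of 2 kinds. Outside gene bodies, 1985 members stood alone and 89 runs had 3 or more tiles. Within gene bodies, 1060 stood alone and 45 runs had 3 or more. Of the 134 runs of at least 3 tiles, 76 were single-copy, 52 repeated and the rest mixed. Among the single-copy runs, the median H3K4me3 level was 4.0 peaks per kb in both lines (range, 2.0 to 5.33 in LLC-NR and 2.67 to 4.67 in LLC-R). None was thus without an H3K4me3 peak. All distal tiles averaged 2.19 H3K4me3 peaks per kb in both lines, so a peak alone does not set a run apart. The median H3K36me3 level of these runs was 1.33 in LLC-NR against 2.67 in LLC-R. All single-copy members averaged 1.81 and 3.30, and other single-copy tiles 2.57 and 3.97. The H3K36me3 libraries held 6132117 and 8304603 peaks. Levels and counts of runs, genes and lists were not divided by those of like tiles, so depth is not taken out of them.

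Outside gene bodies, 6 runs had 5 or more tiles, of which 5 had less than 8% of single-copy words. In these 5, each of the 8 libraries held at most 1 peak, other than 2 H3K27me3 peaks of LLC-R in a run at chr1:123099001-123101500. The longest, 3 kb at chr10:27538501-27541500, lay 202 kb from the TSS of Lama2 and held no peak. The single-copy run among the 6, 2.5 kb at chr18:36047001-36049500, lay 57.5 kb from the TSS of Cxxc5, itself the gene of a CXXC protein. It held 10 H3K4me3 peaks in LLC-NR against 11 in LLC-R. Its H3K9ac peaks numbered 10 and 8, its H3K27me3 peaks 9 and 10, and its H3K36me3 peaks 2 and 7. Within gene bodies, the run with most tiles, 3.5 kb in an intron of Filip1, was repeated and held 1 H3K27me3 peak in each line and 1 H3K36me3 peak in LLC-R. The next, 3 kb at chr15:76009001-76012000, was wholly coding exon of Plec, the gene of the cytolinker plectin. It held 14 H3K4me3 peaks in LLC-NR against 12 in LLC-R, 6 and 7 of H3K9ac, 9 and 11 of H3K27me3, and 8 and 11 of H3K36me3. An intronic run of 2.5 kb at chr6:99470501-99473000 in Eif4e3, which encodes a cap-binding protein, held 10 and 11 H3K4me3 peaks but 2 and 5 of H3K36me3. One of 4 runs with 4 tiles, 2 kb at chr1:91476501-91478500 in an intron of Agap1 and first among them in CpG O/E, held 10 and 8 H3K4me3 peaks and 1 and 3 of H3K36me3. Another run, of 2.5 kb in Park2, had no single-copy word and no peak.

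As a description chosen by the mark itself, the run with most H3K4me3 was 1.5 kb at chr10:80606501-80608000 in Zbtb7a, a gene for a zinc finger repressor, with 5.33 peaks per kb in LLC-NR against 4.67 in LLC-R. It was followed by runs near Ppara (5.0 and 4.50), in an intron of Cacna1c (4.67 and 4.67) and near Pcgf5, which encodes a Polycomb subunit (4.67 and 4.67). Each of these 4 had at least 99.9% of single-copy words. Further runs, among them those in Prdm13 and Tcf20 and 1 near Dhx15, also had 4.67 and 4.67. They were lower in CpG O/E than the runs of Cacna1c and Pcgf5, and the run near Dhx15 had 96.0% of single-copy words. At the other end, 33 runs had no H3K4me3 peak in either line, and each had at most 6.24% of single-copy words. The 4 of these with the lowest CpG O/E lay near Rasa1, near Myo3a (2 runs) and in Filip1.

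Of 21418 protein-coding genes, 982 had a member in their body, 525 had a single-copy one and 106 had 3 or more. By number of members, the first was Gm20388, a model of 4435 kb on chromosome 8 that spans many other genes, with 25 tiles. Plec followed with 11, all with coding exon, at 4.36 H3K4me3 peaks per kb in LLC-NR against 3.45 in LLC-R and at 2.73 and 4.0 H3K36me3 peaks per kb. Of 10 genes with 5 members, the 3 with the highest CpG O/E (Eif4e3, Dlgap1 and Spnb4) are described here. Scarf2, a scavenger receptor gene, had 6 coding tiles at 4.33 and 3.67 H3K4me3 peaks per kb and 4.0 and 2.33 H3K9ac peaks per kb. The 5 coding tiles of Spnb4, which encodes a spectrin of axons, held 3.60 and 4.80 H3K4me3 peaks per kb, and the 5 intronic tiles of Eif4e3 held 4.0 and 4.40. Galntl6, Filip1, Gpc5 and the protocadherin gene Pcdha11 had 6 or 7 members each and none that was single-copy. Their H3K4me3 levels were at most 1.43 peaks per kb. Dlgap1, a gene of the postsynaptic scaffold, had 5 members, of which 1 was single-copy.

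Lists of genes were read from the annotation and described by their members, without a test. Of 102 developmental transcription factor genes, 18 had 35 single-copy members, with 3.83 H3K4me3 peaks per kb in LLC-NR against 3.60 in LLC-R, beside 3.67 and 3.63 for all 808 single-copy members within gene bodies. Their H3K27me3 level was 4.06 and 4.46, beside 3.69 and 4.18. Their H3K9ac level was 2.80 and 3.31, beside 3.24 and 3.10. Bcl11b and Zfhx3, both genes of zinc finger factors, had 5 members each. Those of Bcl11b held 9 H3K4me3 peaks in LLC-NR against 11 in LLC-R, with 9 and 11 of H3K27me3 and 2 and 9 of H3K36me3. Those of Zfhx3 held 11 and 11 of H3K4me3, 10 and 8 of H3K27me3 and 9 and 10 of H3K36me3.

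The other 4 lists had few members. Of 42 imprinted genes, 4 had 6 single-copy members. Of these, 3 lay in introns of Kcnq1, a potassium channel gene of an imprinted cluster, with 8 H3K4me3 peaks in LLC-NR against 5 in LLC-R, and 0 and 6 of H3K36me3. Of 29 collagen genes, 2 (Col6a2 and Col23a1) had 3 single-copy members, with 4.67 H3K4me3 peaks per kb in LLC-NR against 1.33 in LLC-R. Among 17 calcium channel and Notch genes, Cacna1a, Cacna1c and Notch3 had 7, with 3.14 and 4.29. Of 33 VEGF and angiogenesis genes, 2 had 3 single-copy members, with 2.67 and 3.33. These lay in Flt4, the gene of VEGF receptor 3, and in Fgfr2, a fibroblast growth factor receptor gene.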

How the data were processed

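Chromatin of LLC-NR and LLC-R isografts was profiled by ChIP-seq for 4 marks, with 1 library per line and mark. Per the methods, the authors aligned reads with up to 2 mismatches to mm9 (Bowtie, version 0.12.7), retained those that mapped uniquely and called peaks of 147 bp in each library with GeneTrack, whose settings are not given in the sources used here. The deposited files list peaks by chromosome, first base and last base, with no count, height or strand. From 2 to 7 peaks per library ran past a chromosome end.

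Sequence came from NCBIM37 and gene models from GENCODE vM1. Tiles were classed by the share of their 31-base words found once on either strand of the assembly. Levels of members were divided by the mean of other distal tiles weighted to the same 1-point bins of G+C. Members in bins with fewer than 20 other tiles were left out of the ratio, a minimum set after the data were seen. Bins of 3 points were used for the ratios by distance class and by exon or intron, and for the CpG O/E classes. The standard error of the weighted mean was between 0.568% and 2.00% of it for single-copy tiles and is not part of the intervals. Intervals of ratios are exact Poisson intervals of the members' peaks, those of differences between lines are exact binomial intervals of the peaks of both libraries, and those of shares are Clopper-Pearson intervals, all at 95%. They cover counting error only, and no p-value is given. Per chromosome, the expected level of the bins was scaled to the other tiles of that chromosome.

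The text covers the 5 longest runs in each location, some of those outside gene bodies only as a group. It names the 10 protein-coding genes with most members and some genes of 5 lists with a member. Ties were ordered by higher CpG O/E, and the tied run on chromosome 1 was added after its values were seen. The 4 runs with most and the last 4 by H3K4me3 peaks, in the same order, are named as a description. The sequences are those of the members with most CpG, and since no other tile had the same G+C, the nearest was taken. Members and lists were chosen with earlier results of these data known. Composition, counting and matching were checked on simulated data. Alternatives covered the grid, the distance from a TSS, the overlap that counts a peak, matching on chromosome or repetition, the thresholds, repetition, gene types and the scaling between lines. Chromosomes X and Y and gene expression were not analysed here. Calculations ran in Python 3.11.15 with numba 0.67.0, pandas 2.3.3, SciPy 1.17.1, NumPy 2.4.6 and Matplotlib 3.10.9.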

Additional observations from a re-analysis of the deposited data

How the results depend on the processing

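The values in this paragraph are log2 ratios to other tiles of like G+C, given for LLC-NR first and LLC-R second, or differences between them (LLC-R minus LLC-NR) where so named. Of 232 values under alternatives, 134 stayed within the counting interval of the main value over all members, 71 moved out of it with the same direction or from a main interval that included 0, and 27 reversed. A grid shifted by 250 bp and gene bodies of protein-coding genes only moved none of 24 values each, and any overlap of at least 1 bp moved 1, H3K9ac outside gene bodies in LLC-R, to -0.45.

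With single-copy tiles only, the values outside gene bodies were 0.33 and 0.22 for H3K4me3, -0.14 and -0.16 for H3K9ac, 0.025 and -0.056 for H3K27me3, and -0.14 and -0.082 for H3K36me3. Within gene bodies they were 0.30 and 0.15, -0.12 and -0.13, 0.12 and 0.036, and -0.18 and -0.081. Matching on repetition class as well as G+C was chosen after seeing the data. It gave 0.20 and 0.090 for H3K4me3 outside gene bodies, -0.31 and -0.33 for H3K9ac, -0.13 and -0.19 for H3K27me3, and -0.27 and -0.24 for H3K36me3. Within gene bodies it gave 0.26 and 0.10, -0.22 and -0.22, 0.050 and -0.048, and -0.21 and -0.14.

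Thresholds of 60% G+C and a CpG O/E of 0.75 gave 1.88 and 1.78 for H3K4me3 outside gene bodies, 1.52 and 1.39 for H3K9ac, 1.53 and 1.46 for H3K27me3, and 1.52 and 1.34 for H3K36me3. Within gene bodies these were 0.93 and 0.72, 0.47 and 0.58, 0.75 and 0.73, and 0.46 and 0.44. The difference between lines became -0.18 for H3K36me3 outside and 0.12 for H3K9ac within gene bodies. With the same thresholds and single-copy tiles only, chosen after seeing the data, 129 and 131 members had like tiles. The values outside gene bodies were then 0.21 and 0.17 for H3K4me3, -0.20 and -0.16 for H3K9ac, 0.057 and -0.057 for H3K27me3, and -0.19 and -0.15 for H3K36me3. Within gene bodies they were 0.22 and 0.055, -0.13 and -0.066, 0.14 and 0.12, and -0.22 and -0.16.

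Matched on chromosome as well as G+C, which left out 938 members outside and 604 within gene bodies, the values outside were -0.022 and -0.17 for H3K4me3, -0.65 and -0.67 for H3K9ac, -0.45 and -0.48 for H3K27me3, and -0.62 and -0.56 for H3K36me3. Within gene bodies, H3K9ac became -0.57 in LLC-R and H3K27me3 -0.29 and -0.38. Beyond 10 kb from a TSS, the values within gene bodies became -0.049 for H3K4me3 in LLC-NR, -0.59 and -0.61 for H3K9ac, -0.33 and -0.43 for H3K27me3, and -0.60 and -0.48 for H3K36me3. The cause was not tested in either case.

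Divided by uniquely mapped reads in place of like tiles, the differences between lines outside and within gene bodies were 0.26 and 0.27 for H3K4me3, 0.72 and 0.75 for H3K9ac, -0.94 and -0.90 for H3K27me3, and -0.19 and -0.40 for H3K36me3. Divided by the library's own peaks, they were -0.0043 and 0.0078 for H3K4me3, -0.17 outside for H3K27me3, and 0.59 and 0.38 for H3K36me3. No paired analysis was possible because each line has 1 library per mark and no replicate could be left out. Without peak heights or an input library, neither depth nor nuclease preference could be taken out of a tile's level.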
